A study of Mus musculus with 8 samples.

Results

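The 10 genes described here encode laminin chains and the glycoproteins that hold a laminin network in a basement membrane: *Lama2*, *Lama4*, *Lama5*, *Lamb1*, *Lamb2*, *Lamc1*, *Nid1*, *Nid2*, *Hspg2* and *Agrn*. They were taken by symbol from a table of 24346 genes, and all 10 passed the expression minimum that left 15342 genes for testing. The table holds RNA sequencing of mesenchymal stem cells (MSCs) cultured from the bone marrow of female C57BL/6 mice aged 8 to 16 weeks. WT mice were littermates of *Dnmt3l* KO mice, in which a germline mutant allele removes DNMT3L, a catalytically inactive cofactor of the de novo DNA methyltransferases. MSCs of 3 mice of a genotype were mixed, depleted of CD11b and CD45 positive cells and sequenced at passage 4. The cells were either undifferentiated, in medium with 20% fetal bovine serum, or differentiating, after 3 days of osteogenic induction in medium with 10% fetal bovine serum, 0.1 μM dexamethasone, 10 mM β-glycerophosphate and 50 μM ascorbic acid 2-phosphate. Each of the 4 groups had 2 libraries. Nothing in the sources states if paired libraries derive from different cell mixes, so every p value below measures only the spread between these libraries, which may be technical. Because all comparisons draw on the same 4 groups, they share libraries and are not independent of each other.

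A laminin molecule is a trimer of an alpha, a beta and a gamma chain joined in a coiled coil. The alpha chain carries the globular domains that bind integrins and dystroglycan, and the beta and gamma chains carry most of the sites for polymerization. Nidogens link laminin to type IV collagen, while perlecan and agrin are heparan sulfate proteoglycans that tie the network to growth factors and to dystroglycan. In bone marrow, laminins with the alpha4 and alpha5 chains are known mainly from vessel walls, and MSCs and pericytes are among the cells that make them.

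The libraries corresponded to between 48.2 M and 67.0 M scaled reads, with a median of 50.15 M, as estimated from the steps between low RPKM values (reads per kilobase of transcript, scaled to library size). At this depth the smallest value of a member, *Agrn* in an undifferentiated KO library, rested on about 795 reads. *Dnmt3l* was at 1.56, 1.09, 0.845 and 0.830 RPKM in the WT libraries and listed at 0 in all 4 KO libraries. The authors report that the WT reads covered only the later exons of the gene, and that KO cells did not express it. They could not detect the canonical DNMT3L protein in cultured MSCs. A listed 0 can be a failed estimate, since *Actb* was listed at 0 in both undifferentiated KO libraries, but no member was at 0 in any library. Replicate libraries were further apart than sampling noise would put them, most of all the 2 differentiating KO libraries, with a chi-square per gene of 19.7 against 2.89 to 7.61 in the other groups. The list of 9 MSC markers summed to between 910 and 1148 RPKM in the undifferentiated and between 2530 and 3469 RPKM in the differentiating libraries. *Ly6a* made up most of the later sum, at 1847 RPKM in WT and 2563 in KO as group means, while *Cd44*, *Pdgfrb* and *Nt5e* fell on induction in both genotypes. All 5 epithelial markers (*Epcam*, *Cdh1* and keratins) stayed below 0.2 RPKM, and 7 of the 8 endothelial markers, *Pecam1* and *Cdh5* included, stayed below 1 RPKM in every library. In bulk samples of this kind, fewer cells of a type and less RNA per cell cannot be told apart.

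DNMT3L acts on DNA methylation at CpG pairs, which were not measured in these libraries, so the upstream sequences of 3 genes are shown only to place them on the genome: *Hspg2*, with the largest difference between genotypes, and *Lama2* and *Lama5*, with the largest rise and the largest fall on induction in WT. The RefSeq promoter table (GRCm38.p6, 250 bases before to 50 after a start) held 7 of the 10 genes. *Lamc1*, *Lama4* and *Nid2* had no entry. The runs below are the bases of the window before the first one that lies in an annotated exon of the gene, 5′ to 3′ on the gene's strand, with CpG pairs in capitals. They lie at chr4:137468553-137468768 on the plus strand, chr2:180225860-180226109 on the minus strand and chr10:27616943-27617192 on the minus strand. The *Lama2* start of RefSeq and the run before it lie inside the gene as GENCODE draws it, downstream of its first exon.
Hspg2: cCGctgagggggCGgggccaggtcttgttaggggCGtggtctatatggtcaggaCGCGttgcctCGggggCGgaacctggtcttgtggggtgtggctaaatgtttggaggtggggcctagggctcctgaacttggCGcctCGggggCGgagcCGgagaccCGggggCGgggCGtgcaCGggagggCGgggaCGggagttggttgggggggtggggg
Lama5: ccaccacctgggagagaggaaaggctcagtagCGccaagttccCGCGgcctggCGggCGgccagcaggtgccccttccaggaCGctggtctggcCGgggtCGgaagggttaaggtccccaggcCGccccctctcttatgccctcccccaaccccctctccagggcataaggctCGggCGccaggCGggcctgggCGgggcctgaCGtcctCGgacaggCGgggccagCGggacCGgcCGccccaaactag
Lama2: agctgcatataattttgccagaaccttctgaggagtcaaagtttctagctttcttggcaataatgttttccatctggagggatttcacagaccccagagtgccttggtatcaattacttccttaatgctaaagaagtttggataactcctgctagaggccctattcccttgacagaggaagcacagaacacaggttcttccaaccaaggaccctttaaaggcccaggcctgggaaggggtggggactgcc
In windows of 300 bases, *Hspg2* had 27 CpG pairs, *Lama5* had 24 and *Lama2* had 1, against a median of 7 over 32851 RefSeq windows. Among the other genes, *Agrn* had 42 at its upstream start and 11 at its downstream start, *Nid1* had 20, *Lamb1* had 18 and *Lamb2* had 4. The GC box GGGCGG, searched on both strands with overlapping matches counted, occurred 5 times in the *Hspg2* window, 4 times in that of *Lama5* and 1 time in that of *Lama2*, and at least 1 time in 35.7% of all windows. *Agrn* had 12 such boxes at its upstream start and 2 at its downstream start, *Lamb1* had 2, *Nid1* had 1 and *Lamb2* had 0. The 250 bases before the *Lama2* start, printed above, held 0. These counts describe letters only.

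RPKM is scaled to transcript length, so levels of different genes can be compared roughly within a library. Ranks and shares were not adjusted for the shifts with GC content, and among long GC-rich transcripts, described below, which touch *Hspg2* and *Lama5*. In undifferentiated WT MSCs the most abundant of the 10 transcripts was *Nid1*, at 142 ± 3.66 RPKM (SD, n = 2), followed by *Lamb1* at 92.1 ± 0.142, *Lamb2* at 48.4 ± 0.0733 and *Lama4* at 34.8 ± 0.599. *Nid2*, *Lamc1* and *Hspg2* came next, at 26.1 ± 0.00283, 25.8 ± 0.890 and 24.4 ± 5.07 RPKM, and their library values overlapped. *Lama2* (7.59 ± 0.0371), *Lama5* (5.65 ± 0.467) and *Agrn* (2.71 ± 0.0534) were lowest, and no library of any of these 3 reached the level of the next gene up. After induction of WT cells *Nid1* remained highest, at 130 ± 7.63 RPKM, and *Lamb2* (74.7 ± 0.795) had passed *Lamb1* (69.7 ± 2.07), with *Lama4* (70.2 ± 2.40) overlapping *Lamb1*. *Lama2* stood above *Nid2* in both differentiating groups and below it in both undifferentiated groups. In undifferentiated KO cells the order was that of WT except for *Hspg2*, which ranked above *Lamb2* at 55.6 ± 2.26 RPKM, and for *Lamc1*, which ranked above *Nid2*.

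**Figure D1:**
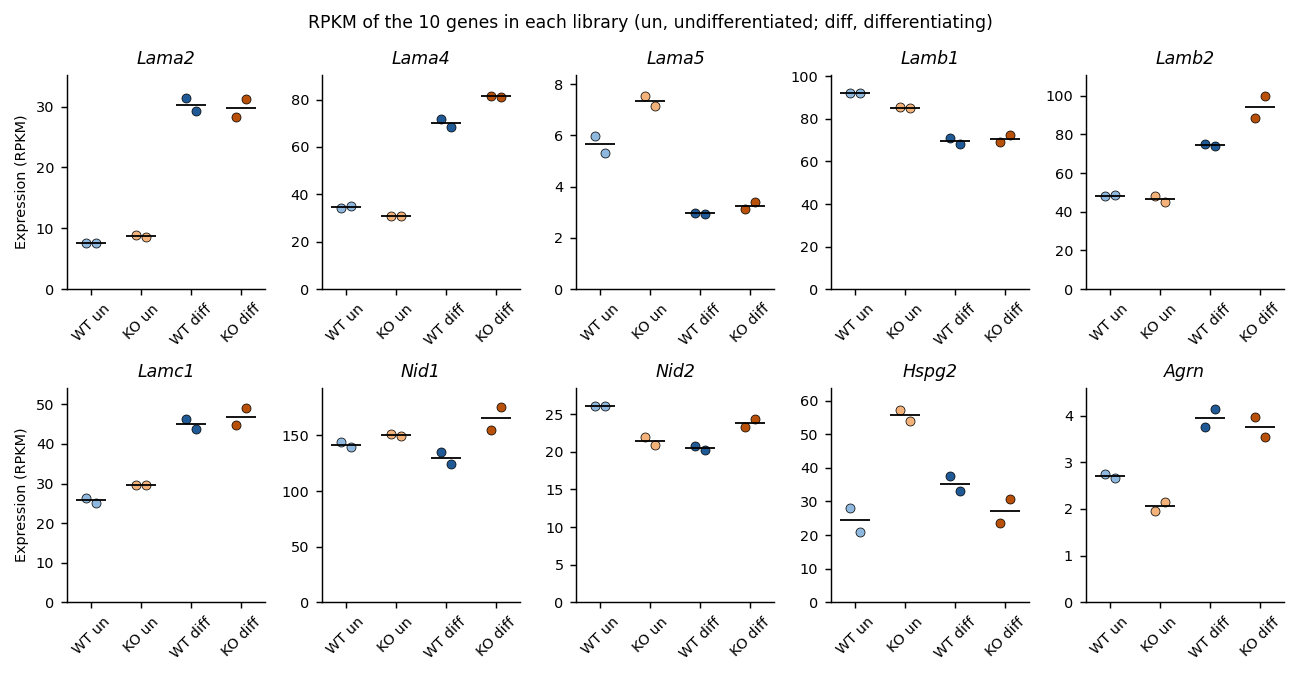
Expression in RPKM (vertical axes, from 0) of the 10 genes in each of the 8 libraries. Points are libraries, bars are group means of 2 libraries. *Lama2* and *Lama4* are higher in all 4 differentiating libraries than in any undifferentiated one, *Lama5* is lower, and *Hspg2* is highest in the 2 undifferentiated KO libraries, at 57.2 and 54.0 RPKM.

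Most of the 10 genes changed with osteogenic induction, and in both directions. Induction here stands for the whole change of medium, the lower serum included, and the 3 days in it. These parts cannot be told apart, as no group was kept uninduced for the same time. In WT cells 6 rose and 3 fell by limma with Benjamini-Hochberg adjustment over all tested genes, where 31.6% of all genes rose and 32.8% fell. *Lama2* and *Lama4* changed by more than 1 on the log2 scale, which together with an adjusted p under 0.05 defines a differentially expressed gene (DEG) here, and 14.3% of all genes did so. In KO cells 6 rose and 3 fell, against 36.4% and 36.6% of all genes, and 5 were DEGs against 22.9%. The median log2 change of the 10 genes was 0.54 in WT and 0.41 in KO, and that of all tested genes was close to 0 in both. Between genotypes fewer of the 10 genes were called. In undifferentiated cells 3 genes were higher in KO (14.7% of all genes) and 3 were lower (17.5%), with *Hspg2* the single DEG (1.70%). In differentiating cells 4 genes were higher in KO (17.8%), no gene was lower (22.9%) and no gene was a DEG (3.30%). At an unadjusted p under 0.05 the lower count in differentiating cells was also 0. The median log2 difference of the 10 genes between KO and WT was 0.01 before and 0.09 after induction. The interaction, that is the induction change in KO minus that in WT, was called positive for 3 genes (19.4% of all genes) and negative for 1 (20.0%), and exceeded 1 in size for *Hspg2* (6.17%).

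**Figure D2:**
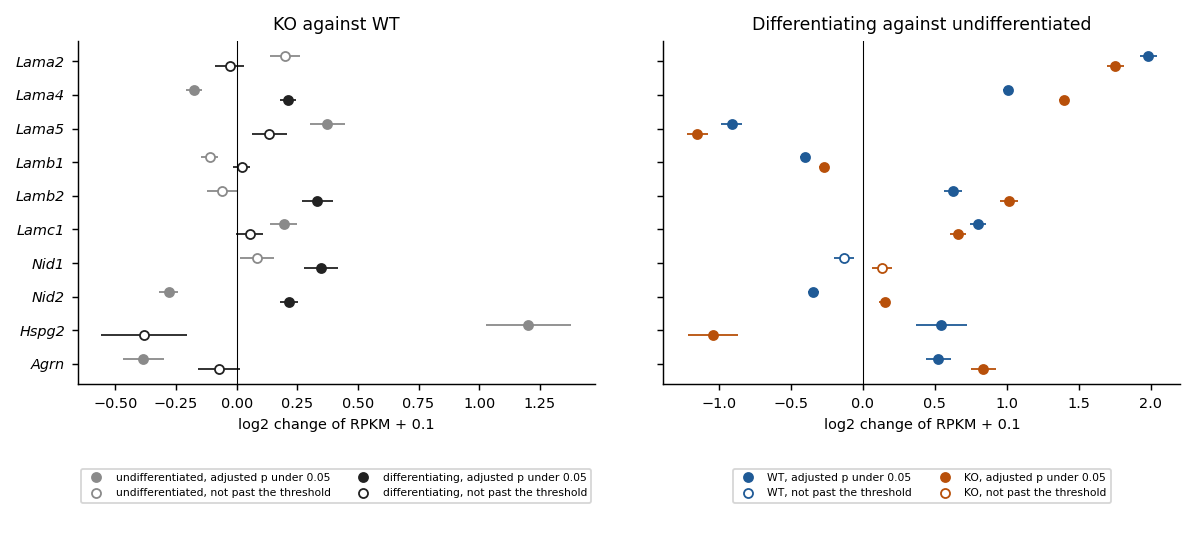
Log2 change of RPKM + 0.1 (horizontal axes) of each gene between genotypes (left) and on induction (right), with standard errors as bars. Filled points have an adjusted p under 0.05. *Hspg2* has the largest genotype difference, 1.20 in undifferentiated cells, and its induction change is 0.55 in WT and -1.04 in KO.

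Among the alpha chains, *Lama2* encodes alpha2, the chain of merosin, best known from muscle and peripheral nerve basement membranes. *Lama2* was at 7.57 and 7.62 RPKM in undifferentiated WT, 8.90 and 8.57 in undifferentiated KO, 31.5 and 29.2 in differentiating WT and 28.2 and 31.3 in differentiating KO libraries. The differentiating libraries of both genotypes thus lay well above the undifferentiated ones and overlapped each other. The log2 change of *Lama2* on induction was 1.98 ± 0.06 (SE) in WT, with a limma adjusted p of 2.98e-06, and 1.75 ± 0.06 in KO, with 2.31e-06. The log2 difference between genotypes in undifferentiated cells, 0.20 ± 0.06, missed the threshold (limma adjusted p = 0.0511), although both KO libraries were above both WT libraries. Without differentiating KO replicate 1 or 2 the same difference passed it, at an adjusted p of 0.0278 and 0.0280. The interaction of *Lama2* was -0.23 (limma adjusted p = 0.0808), and without differentiating KO replicate 2 it was -0.30 and passed at 0.0318.

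*Lama4* encodes alpha4, a chain with a shortened N-terminus made by mesenchymal and endothelial cells. Its level was 34.4 and 35.3 RPKM in undifferentiated WT, 30.8 and 30.9 in undifferentiated KO, 71.9 and 68.5 in differentiating WT and 81.3 and 81.3 in differentiating KO libraries. No groups overlapped, and KO was below WT before induction and above it afterwards. *Lama4* rose on induction by 1.01 ± 0.03 (log2, SE; limma adjusted p = 3.53e-06) in WT and by 1.40 ± 0.03 (6.32e-07) in KO, and the interaction of 0.39 ± 0.05 passed the test at 0.00224. The KO against WT difference was -0.18 before induction (limma adjusted p = 0.0114) and 0.21 after it (0.00486). The first of these calls was lost without undifferentiated WT replicate 2, at -0.16, and without undifferentiated KO replicate 1 or 2, at -0.17 and -0.18, with adjusted p from 0.0610 to 0.0683.

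*Lama5* encodes alpha5, a chain of most adult epithelial and endothelial basement membranes. It was at 5.98 and 5.32 RPKM in undifferentiated WT, 7.52 and 7.16 in undifferentiated KO, 2.96 and 2.95 in differentiating WT and 3.11 and 3.40 in differentiating KO libraries. *Lama5* was thus the alpha chain among the 10 that moved down with induction, and KO libraries were above WT libraries in both states. Its log2 change on induction was -0.91 ± 0.07 (SE; limma adjusted p = 1.14e-04) in WT and -1.15 ± 0.07 (2.46e-05) in KO. In undifferentiated cells *Lama5* was higher in KO by 0.37 ± 0.07 (limma adjusted p = 0.0134). That call was lost without undifferentiated WT replicate 2 (0.29), undifferentiated KO replicate 1 (0.34) or undifferentiated KO replicate 2 (0.41), with adjusted p between 0.0562 and 0.0832. In differentiating cells the difference of 0.13 did not pass the test (limma adjusted p = 0.194).

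As shares of the summed RPKM of the 5 alpha chain genes, *Lama4* made up 67.7% ± 1.15 (SD, n = 2) in undifferentiated WT, 66.6% ± 0.347 in differentiating WT, 64.4% ± 0.773 in undifferentiated KO and 70.0% ± 1.48 in differentiating KO. The rest was redistributed: *Lama2* went from 14.8% ± 0.0685 to 28.8% ± 0.375 in WT and from 18.3% ± 0.310 to 25.6% ± 1.31 in KO. *Lama5* went from 11.0% ± 0.910 to 2.80% ± 0.105 in WT and from 15.3% ± 0.405 to 2.80% ± 0.122 in KO. The alpha chain sum was 51.5 ± 0.0127 RPKM in undifferentiated and 105 ± 4.15 in differentiating WT, and 47.9 ± 0.433 and 116 ± 2.41 in KO. Shares are of transcripts, not of protein or of assembled trimers.

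**Figure D3:**
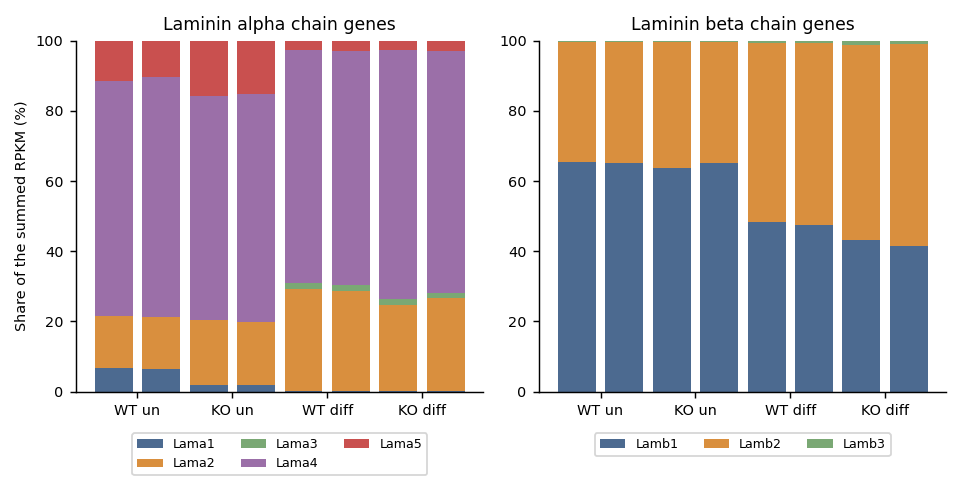
Share of the summed RPKM (vertical axes, %) taken by each alpha and beta chain gene. Each bar is 1 library, in pairs by group. *Lamb1* falls from 65.3% to 47.9% of the beta chain sum in WT and from 64.6% to 42.4% in KO, as group means.

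The beta1 and beta2 chains, encoded by *Lamb1* and *Lamb2*, are alternatives for the same place in the trimer, and beta2 is characteristic of the neuromuscular synapse and the kidney filter. *Lamb1* was at 92.2 and 92.0 RPKM in undifferentiated WT, 85.6 and 85.0 in undifferentiated KO, 71.2 and 68.3 in differentiating WT and 69.2 and 72.2 in differentiating KO libraries. All undifferentiated libraries were above all differentiating ones, and the genotypes overlapped after induction. *Lamb1* fell on induction, with a log2 change of -0.40 ± 0.03 (SE; limma adjusted p = 1.54e-04) in WT and -0.27 ± 0.03 (5.65e-04) in KO. Before induction the KO against WT difference was -0.11 ± 0.03, which missed the threshold (limma adjusted p = 0.0570) and passed it, at 0.0318 and 0.0317, without differentiating KO replicate 1 or 2. The *Lamb1* interaction of 0.13 missed it too (limma adjusted p = 0.0827) and passed, at 0.16 and an adjusted p of 0.0355, without differentiating KO replicate 1.

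*Lamb2* went the other way. Its libraries read 48.3 and 48.4 RPKM in undifferentiated WT, 48.0 and 44.8 in undifferentiated KO, 75.2 and 74.1 in differentiating WT and 88.6 and 99.97 in differentiating KO. Every differentiating library was above every undifferentiated one, and differentiating KO was above differentiating WT, with a spread between its 2 libraries wider than in any other group. The rise was 0.62 ± 0.06 (log2, SE; limma adjusted p = 2.86e-04) in WT and 1.02 ± 0.06 (2.10e-05) in KO. After induction *Lamb2* was higher in KO by 0.33 ± 0.06 (limma adjusted p = 0.00926), a call lost at 0.32 and an adjusted p of 0.0599 without differentiating WT replicate 2. The interaction of 0.39 ± 0.09 passed the test (limma adjusted p = 0.0169). It kept a value between 0.35 and 0.40 but missed the threshold, with adjusted p from 0.0505 to 0.0625, without any 1 of the 4 WT libraries or without undifferentiated KO replicate 2. Together these moves took *Lamb2* from 34.3% ± 0.0678 (SD, n = 2) to 51.3% ± 0.507 of the beta chain sum in WT and from 35.1% ± 0.970 to 56.5% ± 1.40 in KO.

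*Lamc1* encodes gamma1, the gamma chain of most laminin trimers. It was at 26.5 and 25.2 RPKM in undifferentiated WT, 29.5 and 29.6 in undifferentiated KO, 46.4 and 43.7 in differentiating WT and 44.7 and 48.9 in differentiating KO libraries. Differentiating libraries of the 2 genotypes overlapped and were all above the undifferentiated ones. *Lamc1* rose by 0.80 ± 0.06 (log2, SE; limma adjusted p = 5.90e-05) in WT and by 0.66 ± 0.06 (7.67e-05) in KO. The higher level in undifferentiated KO, 0.19 ± 0.06, was called at 0.0414 by limma, but in only 7 of 19 alternative analyses. The call was lost without any 1 of the 4 undifferentiated or the 2 differentiating WT libraries, at values from 0.16 to 0.23. It was also lost with libraries adjusted for GC content, at 0.17 (limma adjusted p = 0.0721).

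Nidogens 1 and 2 have overlapping roles as connectors of laminin and type IV collagen. *Nid1* was at 144 and 139 RPKM in undifferentiated WT, 152 and 149 in undifferentiated KO, 135 and 124 in differentiating WT and 155 and 176 in differentiating KO libraries. KO libraries were above WT libraries in both states. Before induction the difference was not called, and it was called in 0 of 19 alternative analyses, with log2 values between 0.06 and 0.11. After induction *Nid1* was higher in KO by 0.35 ± 0.07 (log2, SE; limma adjusted p = 0.0116), and without differentiating WT replicate 2 the difference was 0.29 and missed the threshold at 0.0729. Its induction change was -0.13 ± 0.07 in WT (limma adjusted p = 0.156) and 0.13 ± 0.07 in KO (0.135), the smallest absolute changes of the 10 genes. Without differentiating KO replicate 1 the change in KO was 0.23 and passed at 0.0210, and the interaction was 0.35 and passed at 0.0213, against 0.26 and an adjusted p of 0.0840 with all libraries.

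*Nid2* was at 26.1 RPKM in both undifferentiated WT libraries, 21.9 and 20.9 in undifferentiated KO, 20.8 and 20.2 in differentiating WT and 23.3 and 24.4 in differentiating KO. It was lower in KO before induction and higher in KO afterwards, with no overlap in either state. *Nid2* fell on induction in WT, at -0.34 ± 0.04 (log2, SE; limma adjusted p = 4.50e-04) and rose in KO by 0.15 ± 0.04 (0.0118). The interaction was 0.50 ± 0.05 (limma adjusted p = 0.00176). The difference between KO and WT was -0.28 ± 0.04 (0.00438) before and 0.22 ± 0.04 (0.00771) after induction. The rise in KO missed the threshold, at 0.12 and an adjusted p of 0.0687, without undifferentiated KO replicate 2, and, at 0.047 and 0.241, with each library adjusted for GC content and length of the transcripts. The difference after induction missed it, at 0.20 and 0.0524, without differentiating WT replicate 2. As a share of both nidogens, *Nid1* was between 84.5% and 87.5% in the 4 group means.

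*Hspg2* encodes perlecan, a large proteoglycan whose heparan sulfate chains bind growth factors. It was at 27.9 and 20.8 RPKM in undifferentiated WT, 57.2 and 54.0 in undifferentiated KO, 37.4 and 33.1 in differentiating WT and 23.6 and 30.8 in differentiating KO libraries. Undifferentiated KO stood apart from every other library, and after induction KO was below WT. The KO against WT difference in undifferentiated cells was 1.20 ± 0.18 (log2, SE; limma adjusted p = 0.00529) and remained past the adjusted threshold in all 19 alternative analyses, between 0.78 and 1.42. Without undifferentiated WT replicate 2 it fell below a log2 change of 1, so that *Hspg2* was then no DEG. On induction *Hspg2* rose in WT by 0.55 ± 0.18 (limma adjusted p = 0.0346) and fell in KO, at -1.04 ± 0.18 (0.00204). The rise in WT was past the threshold in 10 of the 19 alternatives. It was lost, with values from 0.33 to 0.63, without undifferentiated WT replicate 2, either differentiating WT library or either undifferentiated KO library. With libraries adjusted for GC content it was 0.48 and also missed the threshold (limma adjusted p = 0.0509). The interaction was -1.59 ± 0.25 (limma adjusted p = 0.00510) and passed in all 18 alternatives, between -1.80 and -0.96. In differentiating cells the difference of -0.38 did not pass the test (limma adjusted p = 0.135).

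In undifferentiated cells the genotype difference varied with the GC content of the transcripts. Transcript length was looked at only together with GC content. *Hspg2* has the longest transcript of the 10, 14187 nt in GENCODE, and 60.9% of its bases are G or C, more than in 96.7% of tested genes. *Lama5* follows with 11388 nt and 59.9%. Over all tested genes the median log2 KO against WT difference was 0.10 in the decile with the highest GC content and -0.07 in the decile with the lowest. That highest decile held 10 tested genes with transcripts of at least 10000 nt, *Hspg2*, *Lama5*, *Kmt2d*, *Plec* and *Tnxb* among them. All 10 were higher in undifferentiated KO, with a median of 0.50, and 9 of them were called higher, against 14.7% of all genes. *Hspg2* and *Lama5* are themselves in this group, so its counts and medians here and below include their values. The log2 differences of the rest ran from 0.02 (*Speg*) to 1.26 (*Kmt2d*). On induction in WT 5 of these 10 were called higher and 3 lower, with a median of 0.35 (31.6% and 32.8% of all genes). In KO cells 1 was called higher and 7 lower on induction, with a median of -0.51 (36.4% and 36.6%). Their interaction was called negative for 7 and positive for 0, with a median of -0.47 (20.0% and 19.4%). With each library adjusted for GC content and length together, the *Hspg2* difference was 0.78 ± 0.09 (limma adjusted p = 0.00263), its fall in KO -0.49 (0.00302) and its interaction -0.96 (0.00298). With the same adjustment the *Lama5* difference between genotypes was 0.07 and was not called (limma adjusted p = 0.326), its difference in differentiating cells was 0.26 and was called (0.0103), and its interaction changed sign from -0.24 to 0.19, neither of them called. The adjustment also brought differences past the threshold in undifferentiated cells for *Lama2* (0.20, limma adjusted p = 0.0123), *Lamb1* (-0.15, 0.00810) and *Lamb2* (-0.19, 0.0377). It did so for the *Nid1* change in WT (-0.25, limma adjusted p = 0.00748) and for the interactions of *Lama2* (-0.18, 0.0425), *Lamb1* (0.16, 0.0165) and *Nid1* (0.29, 0.0265).

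**Figure D4:**
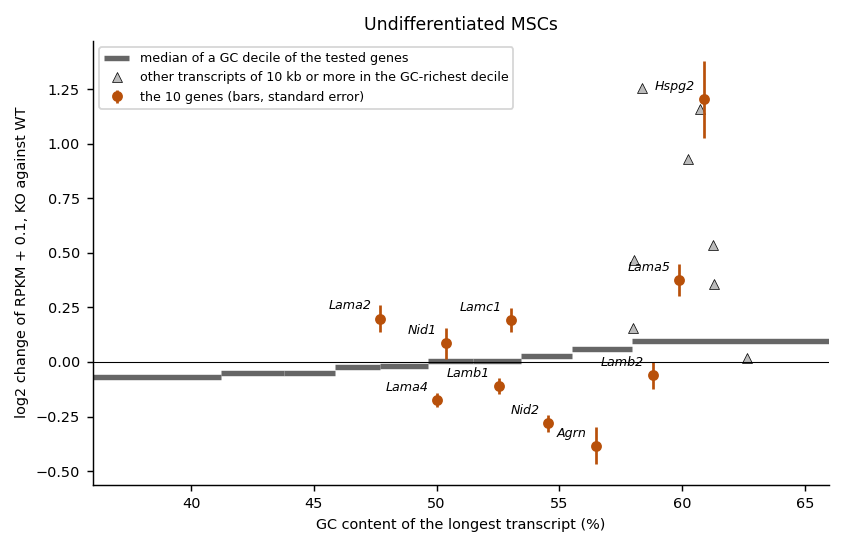
Log2 difference of RPKM + 0.1 between undifferentiated KO and WT cells (vertical axis) against the GC content of the longest transcript (horizontal axis, %, shown from 36 to 66). Grey bars are medians of deciles of the tested genes, triangles other long GC-rich transcripts, and circles the 10 genes with standard errors. *Hspg2* lies at 1.20 beside long transcripts such as *Kmt2d* at 1.26, while the median of the highest decile is 0.10.

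*Agrn* encodes agrin, the proteoglycan that clusters acetylcholine receptors at the neuromuscular synapse and binds laminin and dystroglycan. It was at 2.75 and 2.67 RPKM in undifferentiated WT, 1.96 and 2.15 in undifferentiated KO, 3.76 and 4.14 in differentiating WT and 3.98 and 3.53 in differentiating KO libraries. The genotypes overlapped after induction and did not before it, when KO was lower. *Agrn* rose by 0.53 ± 0.08 (log2, SE; limma adjusted p = 0.00220) in WT and by 0.84 ± 0.08 (1.85e-04) in KO. The lower level in undifferentiated KO, -0.38 ± 0.08, was called at 0.0192 by limma, and was not called without any 1 of the 4 undifferentiated libraries, with values from -0.45 to -0.32 and adjusted p from 0.0538 to 0.104.

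Laminin chain genes outside the 10 were at low levels. *Lama1* encodes alpha1, a chain of early embryonic basement membranes, and was at 3.46 and 3.27 RPKM in undifferentiated WT, 0.921 and 0.867 in undifferentiated KO, 0.197 and 0.171 in differentiating WT and 0.138 and 0.158 in differentiating KO libraries. It was lower in undifferentiated KO, with a log2 difference of -1.80 ± 0.10 (limma adjusted p = 3.47e-04), and fell on induction in both genotypes. Its share of the alpha chain sum in undifferentiated cells was 6.54% ± 0.269 (SD, n = 2) in WT and 1.87% ± 0.0628 in KO. *Lama3* and *Lamb3* encode chains of laminin-332, the laminin of epithelial anchoring. *Lama3* was between 0.0326 and 0.0602 RPKM in undifferentiated and between 1.65 and 1.84 in differentiating libraries, a log2 rise of 3.66 in WT and 3.61 in KO (limma adjusted p = 5.39e-06 and 3.13e-06). *Lamb3* rose by 1.03 in WT and 1.90 in KO, and was higher in differentiating KO (1.92 and 1.82 RPKM) than in differentiating WT (1.14 and 0.978) by 0.77 (limma adjusted p = 0.00424). *Lamc3* was at 0.970 and 0.884 RPKM in differentiating KO and at most 0.535 in the other libraries, and was higher in differentiating KO than WT by 1.14 (limma adjusted p = 0.00295).

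**Figure D5:**
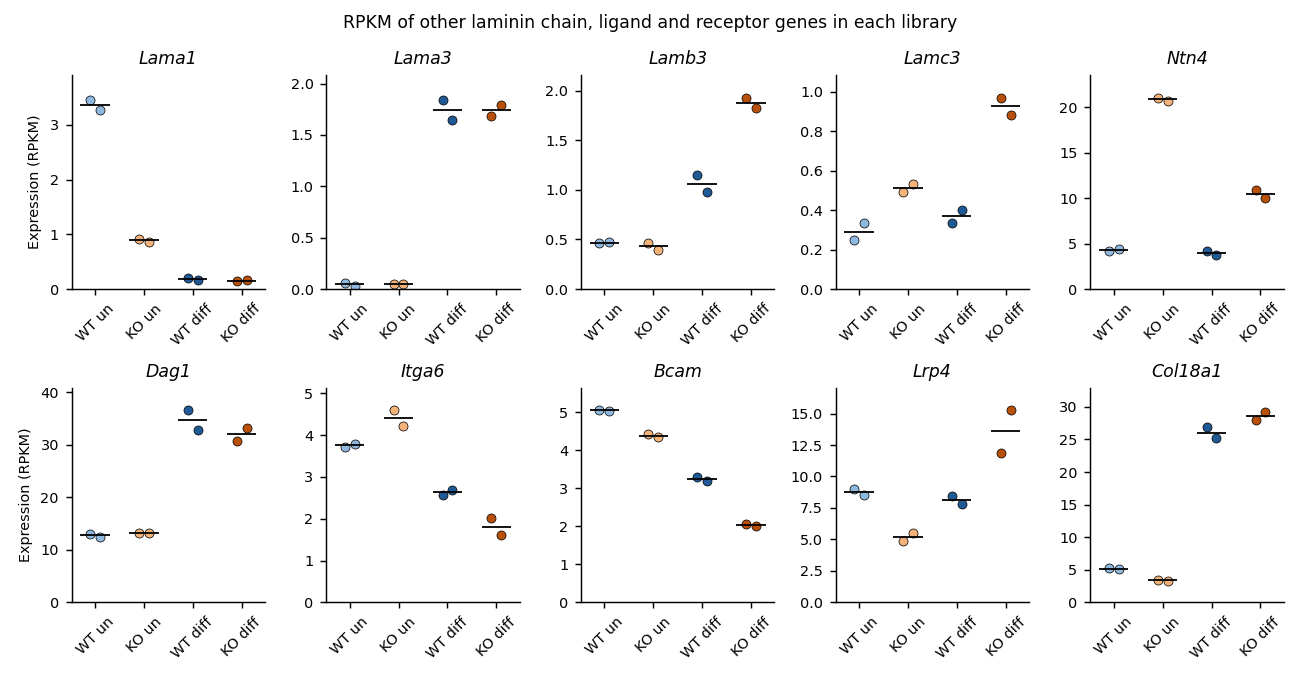
Expression in RPKM (vertical axes, from 0) of 4 other laminin chain genes, of the netrin gene *Ntn4*, of the receptor genes *Dag1*, *Itga6*, *Bcam* and *Lrp4* and of the collagen gene *Col18a1* in each library. Points are libraries and bars group means of 2. *Ntn4* is at 21.0 and 20.7 RPKM in undifferentiated KO against 4.14 and 4.37 in undifferentiated WT.

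Collagens of basement membranes were described as a list of 9 genes, of which 7 were tested. On induction 4 rose and 1 fell in WT (31.6% and 32.8% of all genes), and 5 rose and 1 fell in KO (36.4% and 36.6%), with a median log2 change of 0.55 and 0.54. *Col4a1* and *Col4a2*, whose products form the common type IV collagen trimer, rose by 0.61 and 0.80 in WT (limma adjusted p = 1.47e-05 and 6.46e-06) and by 0.76 and 0.88 in KO (3.53e-06 and 2.56e-06). In undifferentiated cells *Col4a1* was at 176 and 178 RPKM in WT against 145 and 146 in KO, and *Col4a2* at 96.4 and 95.0 against 82.1 and 81.4. Both were thus lower in KO, with log2 differences of -0.28 (limma adjusted p = 0.00205) and -0.23 (0.00443). With *Col18a1* and *Col4a5*, 4 of the 7 tested collagens were lower and 0 higher in undifferentiated KO by limma, against 17.5% and 14.7% of all genes, with a median log2 difference of -0.23, and at an unadjusted p under 0.05 the count of higher genes was also 0. *Col18a1*, the source of endostatin, went from 5.27 and 5.12 to 26.9 and 25.2 RPKM in WT and from 3.50 and 3.28 to 28.0 and 29.2 in KO, with log2 changes of 2.30 and 3.04 (limma adjusted p = 1.13e-06 and 2.67e-07). *Col7a1*, the collagen of anchoring fibrils, fell, with log2 changes of -0.66 in WT (limma adjusted p = 0.00424) and -1.33 in KO (1.29e-04).

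Receptors for laminin and agrin formed a list of 12 genes, all tested. On induction 5 rose and 6 fell in WT (31.6% and 32.8% of all genes) and 4 rose and 6 fell in KO (36.4% and 36.6%), with medians of -0.30 and -0.35. *Dag1*, which encodes dystroglycan, rose from 13.1 and 12.5 to 36.6 and 32.8 RPKM in WT and from 13.2 and 13.2 to 30.7 and 33.3 in KO, by 1.43 and 1.27 (limma adjusted p = 1.07e-05 and 9.41e-06). Of the 5 integrin subunit genes *Itgb1*, *Itga6* and *Itga7* fell in both genotypes, *Itgb4* rose in both, from 0.181 to 0.516 RPKM in WT and from 0.261 to 0.706 in KO as group means, and *Itga3* rose in WT. *Itgb1*, the beta1 subunit shared by most laminin binding integrins, was at 648 and 675 RPKM in undifferentiated and 451 and 455 in differentiating WT, and at 580 and 570 and 388 and 350 in KO, log2 changes of -0.55 and -0.64 (limma adjusted p = 3.55e-04 and 1.08e-04). *Itga7*, the muscle laminin receptor subunit, fell, with log2 changes of -1.33 in WT and -1.26 in KO (3.17e-04 and 2.60e-04 by limma), to below 1 RPKM in all 4 differentiating libraries. *Itga6* and *Bcam*, which encode receptors for laminins with the alpha5 chain among others, fell, with log2 changes of -0.50 and -0.62 in WT (limma adjusted p = 0.00815 and 6.60e-05) and of -1.25 and -1.07 in KO (9.85e-05 and 4.31e-06). The *Itga6* fall in WT missed the threshold without differentiating WT replicate 1, at an adjusted p of 0.0511. After induction *Bcam* was at 3.29 and 3.20 RPKM in WT and 2.06 and 2.00 in KO, a log2 difference of -0.65 (limma adjusted p = 7.00e-04).

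Agrin signals through a complex of LRP4 and the kinase MuSK, and both genes were among the receptors. *Lrp4* was at 8.996 and 8.56 RPKM in undifferentiated WT, 4.85 and 5.48 in undifferentiated KO, 8.44 and 7.84 in differentiating WT and 11.9 and 15.3 in differentiating KO libraries. It was thus lowest in KO before induction and highest in KO after it. *Lrp4* rose on induction in KO by 1.37 ± 0.12 (log2, SE; limma adjusted p = 1.09e-04), its change in WT was -0.11 (0.470), and the interaction was 1.48 ± 0.17 (0.00217). *Musk* rose from 0.149 and 0.162 to 0.925 and 0.823 RPKM in WT and from 0.0402 and 0.0904 to 0.986 and 1.12 in KO (limma adjusted p = 1.98e-04 and 2.33e-05).

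Dystroglycan reaches the cytoskeleton through a complex described by 10 genes, of which 9 were tested. On induction 6 rose and 1 fell in each genotype, against 31.6% and 32.8% of all genes in WT and 36.4% and 36.6% in KO, with a median log2 change of 0.13 in WT and 0.40 in KO. *Dtna*, the alpha-dystrobrevin gene, rose by 1.44 and 1.63 on the log2 scale, and *Sspn*, the sarcospan gene, by 0.69 and 1.17. Laminin binds dystroglycan through its sugar chains, and 12 genes of their synthesis were tested. In WT 5 of them rose and 5 fell on induction, in KO 3 rose and 5 fell, against the same shares of all genes, and the DEG among them was *Ispd*, which supplies the ribitol donor. It went from 2.70 and 2.64 to 5.68 and 5.78 RPKM in WT and from 2.50 and 2.24 to 7.35 and 7.46 in KO, by 1.07 and 1.60 (limma adjusted p = 2.48e-05 and 3.02e-06).

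Of 16 other basement membrane proteins 12 were tested. On induction 7 rose and 3 fell in WT (31.6% and 32.8% of all genes) and 7 rose and 4 fell in KO (36.4% and 36.6%). Between genotypes 3 were higher and 4 lower in undifferentiated KO (14.7% and 17.5%). *Ntn4* encodes netrin-4, a laminin related protein that binds the gamma1 chain and disrupts laminin networks. It was at 4.14 and 4.37 RPKM in undifferentiated WT, 21.0 and 20.7 in undifferentiated KO, 4.14 and 3.70 in differentiating WT and 10.9 and 10.0 in differentiating KO libraries. KO was above WT in both states, by 2.27 ± 0.07 (log2, SE; limma adjusted p = 4.74e-05) before and 1.39 ± 0.07 (3.43e-04) after induction. *Matn2*, the matrilin-2 gene, rose from 6.83 and 6.63 to 33.3 and 31.4 RPKM in WT and from 5.22 and 5.33 to 36.2 and 35.7 in KO. *Tinagl1* was at 22.2 and 22.9 RPKM in undifferentiated WT and 38.0 and 37.1 in undifferentiated KO, higher in KO by 0.73 (limma adjusted p = 9.45e-04), and rose in both genotypes on induction. *Papln*, the papilin gene, rose from at most 0.0297 RPKM to between 0.657 and 1.19.

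Perlecan and agrin carry heparan sulfate, and 16 genes of its synthesis and editing were all tested. On induction 6 rose and 8 fell in WT (31.6% and 32.8% of all genes) and 3 rose and 12 fell in KO (36.4% and 36.6%), with medians of -0.06 and -0.31. *Ext1*, a polymerase of the chain, fell, with log2 changes of -0.95 in WT and -1.10 in KO (limma adjusted p = 1.26e-05 and 3.92e-06), and *Glce*, an epimerase, fell as well, with -1.03 and -0.48 (4.76e-06 and 5.00e-05). *Sulf2*, which removes sulfate from finished chains, rose from 31.4 and 29.7 to 76.7 and 75.0 RPKM in WT and from 29.2 and 29.6 to 98.6 and 103 in KO. *Sulf1* of the same list went the other way. It was at 123 and 127 RPKM in undifferentiated and 63.8 and 60.6 in differentiating WT libraries. In KO it was at 102 and 99.8 before and 55.0 and 50.2 after induction. *Hpse*, the heparanase gene, rose by 0.61 and 1.41 (limma adjusted p = 0.00128 and 2.04e-05).

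Markers of other cells moved with the same groups, and their part in the values above was not tested. The 5 adipocyte markers all rose on induction in both genotypes, and their sum went from between 56.3 and 66.7 to between 409 and 444 RPKM. The 6 smooth muscle and pericyte markers summed to between 2256 and 2483 RPKM in undifferentiated, to 414 and 471 in differentiating WT and to 230 and 159 in differentiating KO libraries, and 5 of the 6 fell in each genotype. *Rgs5* was the member of that list that rose. The 6 osteoblast markers summed to between 706 and 1105 RPKM in undifferentiated, to 1605 and 1417 in differentiating WT and to 823 and 801 in differentiating KO libraries. *Ibsp* rose in both genotypes, from 50.4 to 695 RPKM in WT as group means and from 20.2 and 19.7 to 386 and 313 in the KO libraries. *Sp7* and *Alpl* fell in both genotypes. *Col1a1* went from 985 and 1048 to 411 and 463 RPKM in KO and from 735 and 597 to 830 and 712 in WT. In undifferentiated KO *Col1a1* was higher and *Ibsp*, *Alpl* and *Bglap* were lower than in WT. The 8 macrophage and leukocyte markers summed to between 17.9 and 35.7 RPKM in WT and between 8.67 and 14.7 in KO, with the pan-leukocyte gene *Ptprc* below 0.2 RPKM throughout. *Lyz2* made up most of that sum in WT, while *Cd14* was higher in KO in both states and *Csf1r* was higher in undifferentiated KO. The endothelial sum was at most 4.88 RPKM and came mainly from *Tek*. Of the 5 Schwann cell and 5 skeletal muscle markers, 2 and 3 were below 0.2 RPKM in every library, *Sox10* among them in the first list and *Myod1*, *Myog* and *Pax7* in the second. The Schwann cell sum was between 3.57 and 4.81 RPKM before and between 8.84 and 10.7 after induction, and the muscle sum fell from between 35.2 and 49.0 to between 2.58 and 5.70, mostly *Acta1*.

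The genes whose log2 level followed a member most closely over the 8 libraries were searched among 12269 genes that averaged 1 RPKM or more. The points share the 4 groups, so the coefficients mostly follow the group means and are given as a description. For *Lama2* they were *Meox2*, *Wwp1* and *Bmp8a*, each with a Pearson r of 0.999. For *Lama5* they were *Dnaaf5* (0.996), *Zswim7* (0.994) and *Cep57* (0.994). *Nid1*, the member with the highest mean, was followed less closely, by *Rabl2* (0.952), *Trmt112* (0.945) and *Morc2a* (0.941).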

How the data were processed

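The authors depleted ribosomal RNA, prepared stranded libraries, sequenced 50-base single-end reads, aligned them with TopHat2 2.1.0 to mm10 and deposited RPKM values from Cuffdiff (Cufflinks 2.2.1). How Cuffdiff scaled the libraries is not given in the sources used here. Low values were whole multiples of a read, within 0.05 reads, in 70.7% of 5213 cases, which gave the depths but did not allow whole reads to be restored for count models. Genes averaging 0.1 RPKM or more across the 8 libraries were tested on log2(RPKM + 0.1) with limma 3.58.1 (R 4.3.3), variance trend and 4 group means, two-sided, with Benjamini-Hochberg adjustment over 15342 genes. Fold changes on this scale understate changes of low genes. Positions and transcripts came from GENCODE M21 on the same build. The fit was tested on simulated data.

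The members and gene lists were chosen with earlier results of these data known. Named were all 10 members, and of each other list of basement membrane genes up to 4 DEGs with the largest change and no overlap between groups, plus fixed receptors, laminin chains and type IV collagens. Some genes that this rule names are not reported here. Genes of cell marker lists were summed. Alternatives changed the pseudocount, minimum, scaling, trend, replicate block, libraries fitted and each library left out. The adjustments for GC content and for GC content and length were added after seeing the data. Replicate numbers did not pair the samples.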

Additional observations from a re-analysis of the deposited data

Results flagged for a closer look

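For 4 genes the induction change differed between KO and WT by the interaction term of limma. *Hspg2* fell in KO, with a rise in WT that was called in 10 of 19 alternative analyses. For this gene the change in KO minus that in WT was -1.586 on the log2 scale, and -0.96 with libraries adjusted for GC content and length. For *Nid2* it was 0.4972, with a fall in WT and a rise in KO that was not called once libraries were adjusted for GC content and length. *Lama4* (0.3866) and *Lamb2* (0.3939) rose in both genotypes, and by more in KO.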

How the results depend on the processing

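Of 940 recomputed values of single genes, 860 kept their direction and side of the threshold, 45 lost and 26 gained a call, and 9 changed sign, none of these 9 past the threshold in the analysis reported. For KO against WT in differentiating cells *Lama2* was at 0.0099 under quantile normalization and at 0.022 with adjustment for GC content and length. With 1 library left out at a time, the same difference ran from -0.10 to 0.044 for *Lama2*, from -0.011 to 0.051 for *Lamb1*, from -0.012 to 0.12 for *Lamc1* and from -0.16 to 0.011 for *Agrn*, with sign changes only without a differentiating library. The *Lama5* interaction was 0.19 with adjustment for GC content and length. With that adjustment 0 genes were DEGs between genotypes in undifferentiated cells, 3 were DEGs on induction in KO, 7 interactions were called and 0 exceeded 1 in size. On induction in WT 1 gene was a DEG with a pseudocount of 1 and 1 with adjustment for GC content. In differentiating cells 2 genes differed between genotypes when only the libraries compared were fitted. With 1 library left out at a time, the number of the 10 genes called between genotypes was 2 to 8 in undifferentiated and 1 to 4 in differentiating cells, 0 to 1 of them DEGs in undifferentiated cells, and 1 to 2 were DEGs on induction in WT. The cause of these moves was not tested. Fewer samples entered the fits with a library left out and those of only the libraries compared, while the other settings used all 8 libraries. Same-numbered replicates did not deviate together (correlations from -0.092 to 0.030), and with a replicate block 5, 4, 8, 9 and 4 genes were called in the 5 comparisons against 6, 4, 9, 9 and 4 without it. Centring libraries on their median shifted the median of all genes by -0.10 on induction in WT. The depth left every member with about 795 reads or more in each library. At that number of reads counting error alone is 3.55% of the value.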
